A study of Mus musculus with 8 samples.

Results

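Ctsw and 9 other cathepsin genes (Ctsa, Ctsb, Ctsc, Ctsd, Ctsf, Ctsh, Ctsl, Ctss and Ctsz) were followed by RNA-seq in 4T1, a mammary tumor line of the mouse used as a model of triple-negative breast cancer. The genes were selected by symbol from the 2 comparisons of the series, with earlier results of these comparisons in view, and all 10 were found among the 28712 genes listed. Since the values of both comparisons entered that choice, the values of the 10 genes are given as a description without p-values. The cells received purified single-domain antibody (sdAb) at 0.5 μg/mL, either sdAb#07.81, which is directed against NUPR1, for 24 h or 48 h, or the control sdAb-Con for 48 h. Both proteins were produced in HEK293F cells and carried the Tat peptide for entry into cells and a Flag tag. According to the labels, all groups were kept at low oxygen. Each group had 2 libraries, and the libraries labelled Con were not analysed here. No label says whether the libraries of a group came from separate cultures, so the spread between them may be technical. 4T1 is a single cell line without other cell types by design, and NUPR1 was targeted as a protein, so the level of Nupr1 RNA does not check the labels.

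Cathepsins are proteases that mostly work in lysosomes, where they break down proteins delivered by endocytosis and autophagy. Most are cysteine proteases of the papain family, whereas cathepsin D is an aspartic protease and cathepsin A a serine carboxypeptidase. They are made as inactive precursors, sorted to lysosomes largely by mannose 6-phosphate receptors, matured by cleavage and held in check by cystatins. Cathepsin W stands apart as a family member known mainly from cytotoxic T cells and natural killer cells, where it is found in the endoplasmic reticulum. Many lysosomal genes are controlled by TFEB and related factors through promoter elements built around the letters CACGTG.

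Promoter stretches with these letters are shown because they let some genes that differed in opposite directions with time be compared in a feature other than expression. Many lysosomal genes hold such elements, so the feature is not independent of the choice of this family. RefSeq promoters on GRCm38.p6 were matched for 7 of the 10 genes (not for Ctsw, Ctsb and Ctsh). In the 250 bases before the listed start, CACGTG, which reads the same on both strands, occurred in Ctsd, Ctsl and Ctsf, 3 of these 7 genes. The share among all 27025 promoters of this length was 6.05%. The sites lie 245 and 98 bases before the start listed for Ctsd, 236 bases before that of Ctsl and 79 bases before that of Ctsf. They read as follows, with the motif in capitals.
Ctsd, chr7:142388055-142388077, minus strand: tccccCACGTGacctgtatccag
Ctsd, chr7:142387908-142387937, minus strand: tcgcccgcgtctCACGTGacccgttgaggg
Ctsl, chr13:64370739-64370768, minus strand: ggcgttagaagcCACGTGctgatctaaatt
Ctsf, chr19:4855074-4855103, plus strand: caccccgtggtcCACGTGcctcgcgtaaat
The second Ctsd stretch and the Ctsl stretch overlap exons that GENCODE M21 lists for the same gene. Ctsd and Ctsl, which both hold the motif, differed in direction between 24 h and 48 h of sdAb#07.81, and Ctsf had almost no reads. Ctsa, which was lower at 48 h like Ctsl, had a matched promoter without the motif. A match of letters does not show that a factor was bound.

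The deposited tables give, for each gene, the mean over 4 libraries of reads divided by size factors, and whole reads of single libraries that give these means were found for 28686 of the 28712 genes. For 88 of these, Ctsl among them, several sets of reads gave the means and 1 was chosen by requiring libraries of a group to lie within 2-fold. Recovered genes held from 14869238 to 17838363 reads per library. The 2 libraries of each group are called a and b, since their replicate numbers are not known. Levels are given below as normalized counts on a scale set over all 6 libraries. Fold changes come from limma on log2(normalized count + 1) with the size factors of the table concerned, for genes with a mean of at least 10, and a gene is called at a Benjamini-Hochberg adjusted p under 0.05 over all genes tested. At 48 h, 9.01% of the 13850 genes tested were called higher with sdAb#07.81 than with sdAb-Con, and 6.26% lower. These 2115 calls became 525 without sdAb#07.81 (48 h) library a and 32 without the filter, so the shares used as background hold for this fit alone. Between 48 h and 24 h of sdAb#07.81, 20.1% of 13942 genes were called higher at 48 h and 21.7% lower. Epithelial keratins marked all libraries, with Krt8 between 10003 and 12800 and Krt18 between 11717 and 14523 normalized counts. Of the 5 epithelial markers, all tested, Krt14 fell in both comparisons, by 0.52 against sdAb-Con (SE 0.157, adjusted p = 0.026 from limma) and by 1.32 against 24 h (SE 0.151, adjusted p = 3.2e-06 from limma) on the log2 scale. The former call ended without sdAb-Con library a (-0.33) or sdAb#07.81 (48 h) library a (-0.43). Cdh1, which encodes E-cadherin, rose against 24 h by 0.63 (SE 0.106, adjusted p = 0.000171 from limma), and Krt8, Krt18 and Epcam were not called in either comparison.

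Ctsw was low with sdAb#07.81 at both times and high with sdAb-Con. The sdAb-Con (48 h) libraries held 222 and 184 reads of Ctsw, the sdAb#07.81 (48 h) libraries 26 each, and the sdAb#07.81 (24 h) libraries 49 and 57. As normalized counts these were 211 and 190 with sdAb-Con, 26.9 and 28.2 with sdAb#07.81 for 48 h, and 44.7 and 54.1 with sdAb#07.81 for 24 h. The 3 groups did not overlap, and the control libraries lay far above the other 4. In the comparison with sdAb-Con (48 h), Ctsw had a log2 fold change of -2.81 (SE 0.234), a level 7.02-fold lower. It was the most negative log2 fold change of the 13850 genes tested in this comparison. In these bulk libraries, fewer cells with the transcript and less of it per cell cannot be told apart. Against sdAb#07.81 (24 h), the log2 fold change was -0.81 (SE 0.319), and Ctsw was number 1251 of the 13942 genes tested when ordered from the lowest. Set against sdAb#07.81 (24 h), the sdAb-Con (48 h) group held 4.02-fold more Ctsw RNA, a contrast in which the antibody and the time cannot be told apart. Both comparisons entered the choice of Ctsw, so its calls and their fate under other settings describe these libraries and support nothing. The lower call against 24 h was lost in 5 of 8 alternative settings, and that against sdAb-Con in none of them.

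**Figure D1:**
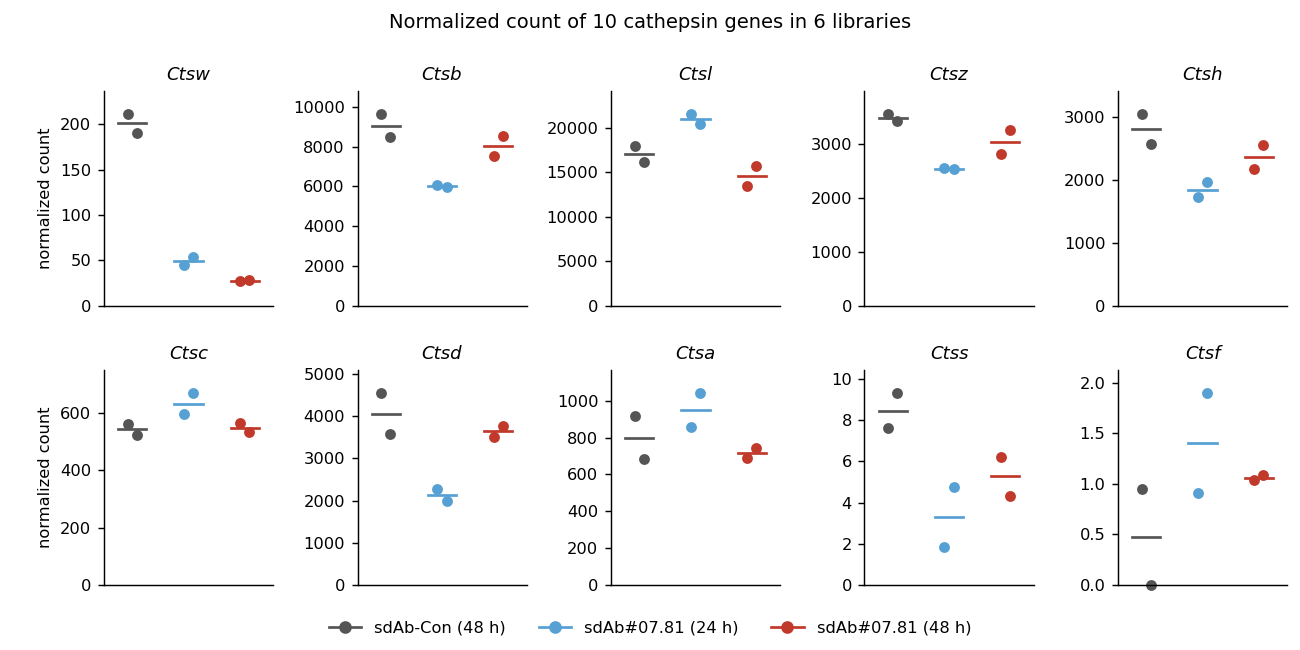
Normalized count (y axis, linear from 0) of each of the 10 cathepsin genes in the 6 libraries. Points are single libraries and bars the mean of the 2 libraries of a group. Ctsw is at 190 and 211 in the sdAb-Con (48 h) libraries and at 54.1 or less in the other 4, whereas Ctsb, Ctsd, Ctsh and Ctsz have their lowest group mean in sdAb#07.81 (24 h) and Ctsl and Ctsa their highest.

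Of the cells in which cathepsin W is best known, the markers looked up were absent or nearly so. Of 9 cytotoxic lymphocyte markers, Prf1, Gzma, Gzmb, Nkg7, Ncr1 and Klrb1c were not listed in either table. Ptprc, the pan-leukocyte marker CD45, reached at most 4 reads in a library, and Cd3e and Cd8a at most 1. Summed over the list, normalized counts were 0 and 1.03 with sdAb-Con (48 h), 0 and 5.43 with sdAb#07.81 (48 h), and 0.912 and 2.85 with sdAb#07.81 (24 h). The Ctsw reads of the control libraries were thus not accompanied by these markers. Lymphocyte genes outside the list were not all absent. Lck had a mean of 69.6 normalized counts in the comparison with sdAb-Con (48 h) and 64.5 in that with 24 h.

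The files list Ctsw (ENSMUSG00000024910) on chromosome 19 from 5515071 to 5518535, minus strand. They name no genome build, and these positions differ from GRCm38 by 50028 bases. Its end overlaps the end of Fibp, on the plus strand from 5510643 to 5515079, by 9 bases, and the sources used here do not say whether reads were counted by strand, so reads in this overlap cannot be told apart. Fibp, which encodes a protein that binds acidic fibroblast growth factor, had 415 and 389 normalized counts with sdAb-Con (48 h). In sdAb#07.81 (48 h) it had 330 and 342, and in sdAb#07.81 (24 h) 350 and 373. Its log2 fold change was -0.25 (SE 0.140) against sdAb-Con (48 h) (adjusted p = 0.234 from limma) and -0.11 (SE 0.151) against 24 h (adjusted p = 0.602 from limma).

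Of the 4 neighbouring genes, 2 were called lower against sdAb-Con (48 h), beside 6.26% of all genes tested, with log2 fold changes closer to 0 than that of Ctsw. The log2 fold change of Ccdc85b was -0.48 (SE 0.144, adjusted p = 0.0241 from limma). Efemp2, which encodes an extracellular matrix fibulin, had -0.39 (SE 0.126, adjusted p = 0.0316 from limma). Mus81, which encodes a DNA repair endonuclease, had -0.18 (SE 0.168) and was not called. Against 24 h, Ccdc85b was called lower, with -0.40 (SE 0.154, adjusted p = 0.0467 from limma), and the other 3 were not called. The call of Ccdc85b against sdAb-Con ended without sdAb-Con library b (-0.41) or sdAb#07.81 (48 h) library a (-0.38), and that of Efemp2 without sdAb-Con library a (-0.31) or either sdAb#07.81 (48 h) library (-0.42 and -0.36), and in the fit over 6 libraries (-0.40, adjusted p = 0.0583 from limma). Against 24 h, the call of Ccdc85b ended whichever of the 4 libraries was left out, with values from -0.51 to -0.29, and with limma voom (-0.40, adjusted p = 0.0502).

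**Figure D2:**
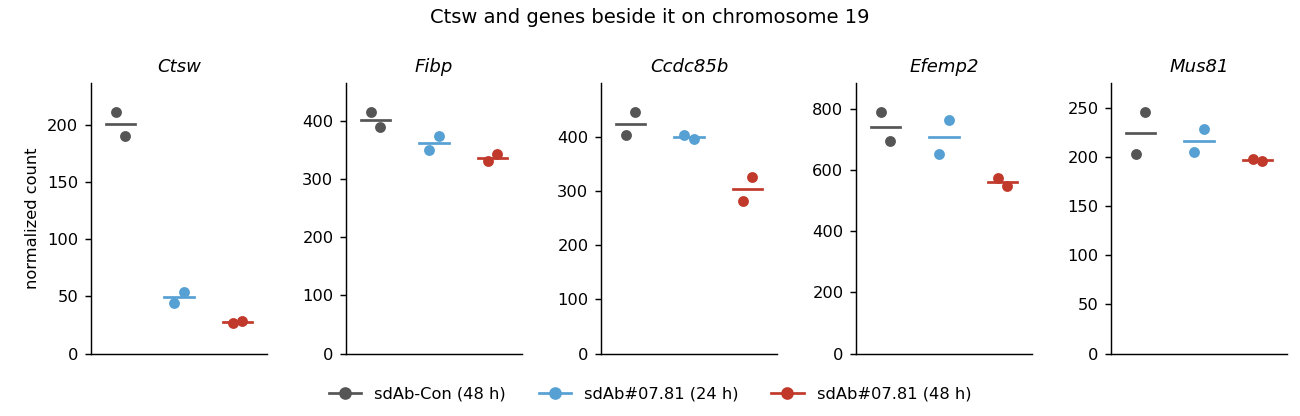
Normalized count (y axis, linear from 0) of Ctsw and of 4 genes listed beside it on chromosome 19, in the 6 libraries. Points are libraries and bars group means. Ctsw spans from 26.9 to 211, whereas Fibp, which overlaps its end, stays between 330 and 415.

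Levels of different genes were compared per kb of the longest GENCODE M21 transcript, on the normalized count scale and as the mean of all 6 libraries. Ctsl, an endopeptidase, had the highest level with 2846 per kb, followed by Ctsz with 2093, Ctsb with 1625, Ctsd with 1538 and Ctsh with 851. Ctsa with 225 and Ctsc with 178 formed a lower tier, and Ctsw had 59.2. Within each 48 h group, Ctsb lay below Ctsd in library a and above it in library b, so their order is not settled there. Ctsl lay above Ctsz in every library. In sdAb#07.81 (48 h) they had 2191 and 1954 per kb in library a, and 2543 and 2250 in library b. Ctss, the cathepsin of antigen-presenting cells, had 4.19 per kb, and Ctsf 0.468. Of the summed level of the 10 genes, Ctsl made up 26.0% and 26.5% with sdAb-Con (48 h), 25.6% and 26.3% with sdAb#07.81 (48 h), and 40.3% and 39.0% with sdAb#07.81 (24 h). The share of Ctsw was 1.20% and 1.24% with sdAb-Con (48 h), 0.201% and 0.186% with sdAb#07.81 (48 h), and 0.329% and 0.407% with sdAb#07.81 (24 h). The order and the shares depend on the length used. Per kb of the median transcript length, Ctsl was again first but was followed by Ctsb with 6074, Ctsh with 2855, Ctsz with 2093, Ctsd with 1702 and Ctsa with 1237. By that length, Ctsl made up 62.8% on average over the libraries in place of 30.6%.

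**Figure D3:**
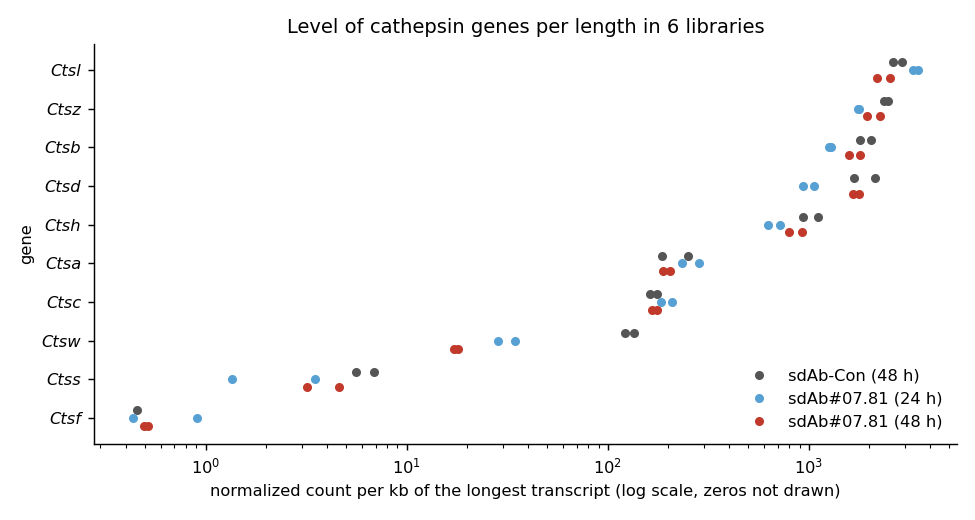
Normalized count per kb of the longest transcript (x axis, log scale) of the 10 cathepsin genes (y axis), 1 point per library, with values of 0 not drawn. The 5 genes from Ctsl to Ctsh lie at 627 or more in all libraries, Ctsw lies between 17.2 and 135, and Ctsf stays under 1.

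In the comparison of sdAb#07.81 (48 h) with sdAb-Con (48 h), 8 of the 10 genes were tested, and Ctsw alone was called. None was called higher by limma, with 0 at an unadjusted p under 0.05 and 0 called higher by limma voom. These counts stand beside the 6.26% and 9.01% of all genes tested, and nothing is read from them since this comparison entered the choice of genes. Their log2 fold changes had a median of -0.18, beside -0.02 over all genes tested. Apart from Ctsw, log2 fold changes ranged from -0.24 for Ctsh (SE 0.118), to 0.02 for Ctsc (SE 0.128). In Ctsl, Ctsz and Ctsh, both sdAb-Con libraries lay above both sdAb#07.81 (48 h) libraries, with fitted levels 1.17-, 1.15- and 1.18-fold lower in the latter, and none of the 3 was called. Without sdAb#07.81 (48 h) library a, their log2 fold changes moved from -0.22, -0.20 and -0.24 to -0.11, -0.095 and -0.13, in the same order, and without sdAb-Con library a they were -0.15, -0.17 and -0.12. The libraries of both groups overlapped for Ctsa, Ctsb, Ctsc and Ctsd. The share of all genes tested whose libraries did not overlap was not counted, so nothing is read from these separations.

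Between 24 h and 48 h of sdAb#07.81, 3 of the 8 tested genes were called higher at 48 h (Ctsd, Ctsb and Ctsh) and 3 lower (Ctsw, Ctsl and Ctsa), beside 20.1% and 21.7% of all genes tested. Ctsz and Ctsc were not called. As before, nothing is read from these counts. Without the filter on low values, only Ctsd and Ctsl were called, and leaving out 1 library ended the call of Ctsa (without library a of 48 h or library b of 24 h), of Ctsb (without library b of 48 h) and of Ctsh (without library b of 48 h or library a of 24 h). The 8 log2 fold changes had a median of 0.02, beside -0.01 over all genes tested.

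Ctsd, the main aspartic protease of lysosomes, had the highest log2 fold change with time of the 8 genes tested. Its normalized counts were 2265 and 1979 at 24 h and 3509 and 3761 at 48 h of sdAb#07.81, and 4541 and 3566 with sdAb-Con (48 h). The 24 h libraries lay below all others, and the 48 h groups overlapped. The log2 fold change was 0.78 (SE 0.117) against 24 h and -0.14 (SE 0.121) against sdAb-Con.

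Ctsb, which cuts within proteins and removes dipeptides from their ends, showed the same order of groups. It had 6088 and 5954 normalized counts at 24 h, 7543 and 8548 at 48 h, and 9641 and 8474 with sdAb-Con (48 h). Its log2 fold change against 24 h was 0.41 (SE 0.111). Ctsh, an aminopeptidase, had 1720 and 1965 normalized counts at 24 h, 2175 and 2545 at 48 h, and 3044 and 2561 with sdAb-Con. The libraries of 24 h and 48 h did not overlap for Ctsb or Ctsh, and the log2 fold change of Ctsh was 0.36 (SE 0.123).

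Ctsz, a carboxypeptidase, had 2547 and 2529 normalized counts at 24 h, 2816 and 3242 at 48 h, and 3547 and 3412 with sdAb-Con (48 h). Its 3 groups did not overlap, but the log2 fold change against 24 h, 0.25 (SE 0.116), was not called. The value was 0.15 without sdAb#07.81 (48 h) library b and 0.36 without library a of that group.

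Ctsl went the other way with time. It had 21573 and 20427 normalized counts at 24 h and 13512 and 15685 at 48 h, with 17972 and 16145 in sdAb-Con (48 h). The 24 h libraries were the highest, and the log2 fold change against 24 h was -0.53 (SE 0.113). For Ctsl, 2 sets of whole reads gave the deposited means, and the set used was the only one in which libraries of a group lay within 2-fold of each other.

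Ctsa, which protects lysosomal beta-galactosidase and neuraminidase besides its peptidase activity, had 855 and 1040 normalized counts at 24 h and 686 and 742 at 48 h. In sdAb-Con (48 h) it had 917 and 681, which spans both sdAb#07.81 (48 h) values. The log2 fold change of Ctsa against 24 h was -0.40 (SE 0.136). This value was -0.27 without sdAb#07.81 (24 h) library b and -0.54 without library a of that group. Ctsc, dipeptidyl peptidase I, which activates granule serine proteases, had the closest group means of the 8 genes tested, with 595 and 669 at 24 h, 564 and 534 at 48 h, and 563 and 523 with sdAb-Con.

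**Figure D4:**
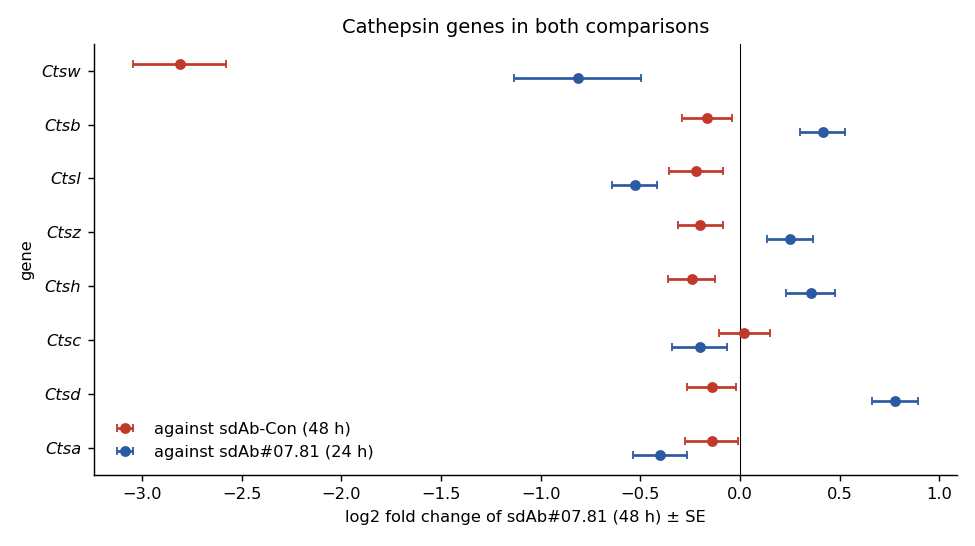
Log2 fold change of sdAb#07.81 (48 h) (x axis) for the 8 cathepsin genes tested (y axis), against sdAb-Con (48 h) in red and against sdAb#07.81 (24 h) in blue, with bars of 1 standard error. Ctsw stands at -2.81 in red, while the other 7 genes lie between -0.24 and 0.02 in red and between -0.53 and 0.78 in blue.

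Ctss and Ctsf were under the minimum mean of 10 and were not tested. Ctss had 8 and 9 reads with sdAb-Con (48 h), 6 and 4 with sdAb#07.81 (48 h), and 2 and 5 with sdAb#07.81 (24 h). Ctsf had 1 and 0, 1 and 1, and 1 and 2 reads in the same order. The Ctss reads of sdAb-Con (48 h) lay above those of both sdAb#07.81 groups, which overlapped each other, and at these counts no difference was tested.

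**Figure D5:**
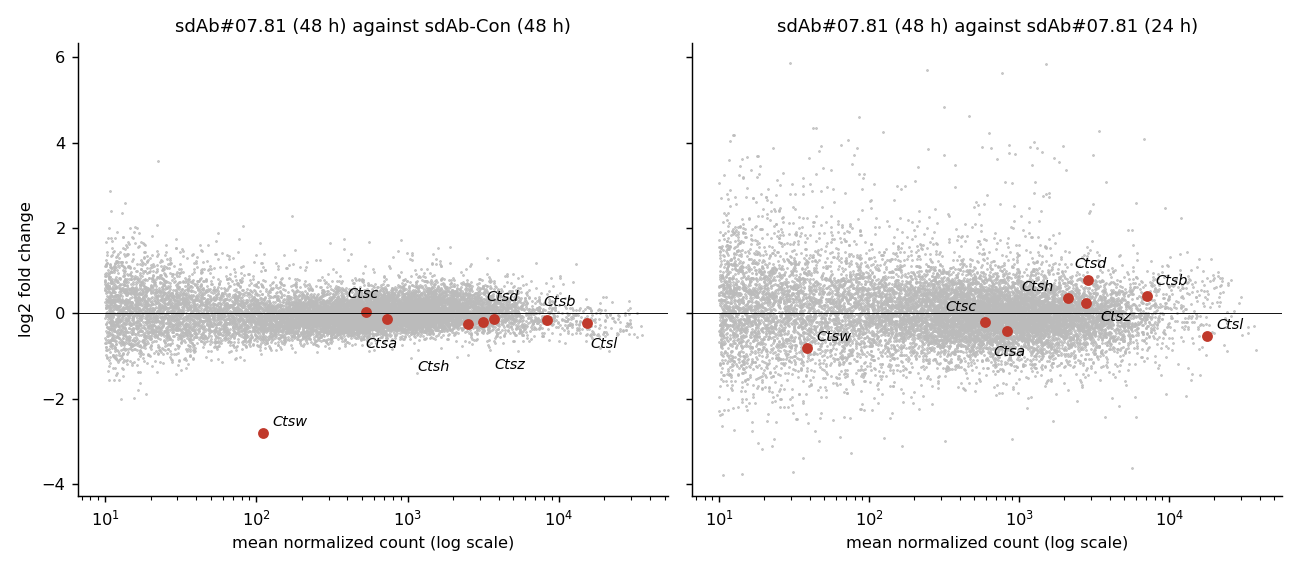
Log2 fold change (y axis) against the mean normalized count of the 4 libraries compared (x axis, log scale) for all genes tested, in grey, and the 8 cathepsin genes tested, in red, with the comparison against sdAb-Con (48 h) on the left and against sdAb#07.81 (24 h) on the right. Ctsw lies below all other genes on the left at -2.81 and within the cloud on the right at -0.81.

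The contrast of sdAb-Con (48 h) with sdAb#07.81 (24 h), taken from 1 fit over the 6 libraries, set the 8 genes apart by sign. The log2 fold change was 2.01 (SE 0.250) for Ctsw, 0.93 (SE 0.124) for Ctsd, 0.60 (SE 0.124) for Ctsh, 0.59 (SE 0.114) for Ctsb and 0.45 (SE 0.111) for Ctsz. It was -0.30 (SE 0.119) for Ctsl, -0.26 (SE 0.146) for Ctsa and -0.22 (SE 0.131) for Ctsc. Thus for Ctsd, Ctsb, Ctsh and Ctsz, both groups at 48 h had more RNA than the group at 24 h. For Ctsl, Ctsa and Ctsc both had less in the group means. Both orders rest on the same sdAb#07.81 (24 h) libraries. No group received sdAb-Con for 24 h, so a change with time under sdAb-Con was not measured. Ctsw followed neither order, since its 48 h groups lay on opposite sides of the 24 h group.

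Of 13 further cathepsin and cathepsin-like genes, 4 were listed and 3 tested. Against sdAb-Con (48 h), the 3 had log2 fold changes from 0.00 to 0.10 and did not pass the threshold. Ctso, which encodes a cysteine cathepsin, rose from 180 and 226 normalized counts at 24 h to 409 and 421 at 48 h of sdAb#07.81, beside 456 and 380 with sdAb-Con. Its log2 fold change against 24 h was 1.04 (SE 0.166, adjusted p = 9.9e-05 from limma). Tinagl1, a secreted relative of cathepsin B without protease activity, fell by 0.49 on the log2 scale (SE 0.118, adjusted p = 0.00329 from limma). Ctsk, the collagen-degrading cathepsin of osteoclasts, had between 14.5 and 16.3 normalized counts in the 48 h libraries but 18.2 and 0.949 at 24 h, and was not called.

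Among 10 inhibitors, 6 were tested, of which 4 rose and 1 fell between 24 h and 48 h of sdAb#07.81, beside 20.1% and 21.7% of all genes tested. Cst3, the secreted cystatin C, rose by a log2 fold change of 0.53 (SE 0.119, adjusted p = 0.00169 from limma). Cstb, an intracellular cystatin, had 932 and 826 normalized counts at 24 h, 1168 and 1543 at 48 h, and 2121 and 1716 with sdAb-Con (48 h). Its log2 fold change was 0.61 (SE 0.143) against 24 h (adjusted p = 0.00249 from limma). Against sdAb-Con, Cstb was the 1 inhibitor of 6 called, as lower, with -0.50 (SE 0.129, adjusted p = 0.009 from limma), beside 6.26% of all genes tested. That call ended without sdAb-Con library a (-0.35) or sdAb#07.81 (48 h) library a (-0.30), and the call against 24 h without sdAb#07.81 (48 h) library b (0.41).

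Of the serpins, which inhibit mainly serine proteases, Serpinb6b rose by 0.92 on the log2 scale (SE 0.166, adjusted p = 0.000294 from limma). Serpinb1a rose by 2.72 (SE 0.691, adjusted p = 0.0045 from limma), from 4.56 and 0.949 normalized counts at 24 h to 13.5 and 31.5 at 48 h. Serpinb6a fell by 0.37 on the log2 scale (SE 0.123, adjusted p = 0.0215 from limma). The call of Serpinb1a ended without sdAb#07.81 (48 h) library b (2.13), and that of Serpinb6a without library a of 48 h (-0.20) or of 24 h (-0.35). The 6 inhibitors had a median log2 fold change of 0.57 against 24 h and -0.32 against sdAb-Con, beside -0.01 and -0.02 for all genes tested.

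Of 7 genes for processing and transport, 4 rose with time, beside 20.1% of all genes tested, and 3 were not called. Nothing is read from the counts of these lists, which were chosen with earlier results known. For the same reason, the adjusted p-values given for their genes are a description and not tests of unselected genes. Lgmn, the asparaginyl endopeptidase that matures several cathepsins, had 2265 and 2343 normalized counts at 24 h and 4579 and 4678 at 48 h of sdAb#07.81, beside 4945 and 4804 with sdAb-Con (48 h). Lgmn had a log2 fold change of 1.01 against 24 h (SE 0.109, adjusted p = 1.8e-06 from limma). The sorting receptors Sort1 and M6pr rose by 1.41 (SE 0.235, adjusted p = 0.000145 from limma) and by 0.35 (SE 0.118, adjusted p = 0.025 from limma). The call of M6pr ended without library b of sdAb#07.81 at 48 h (0.28) or at 24 h (0.29). Igf2r, the large mannose 6-phosphate receptor, and Gnptab, which makes the mannose 6-phosphate tag, had log2 fold changes of -0.04 and -0.03 and were not called, and Psap, the saposin precursor, had 0.23 and was not called.

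Cd74, the invariant chain that cathepsins S and L cleave during antigen presentation, had the largest change of the 7 with time. It had 125 and 223 normalized counts at 24 h and 983 and 992 at 48 h of sdAb#07.81, and 1504 and 1257 with sdAb-Con (48 h). The log2 fold change was 2.56 (SE 0.201) against 24 h (adjusted p = 4.7e-08 from limma) and -0.47 (SE 0.118) against sdAb-Con (adjusted p = 0.00769 from limma). The 3 groups did not overlap, and Cd74 was the 1 gene of the 7 called against sdAb-Con, beside 6.26% of all genes tested called lower. That call ended without sdAb-Con library a, where the log2 fold change was -0.34, and in the fit over 6 libraries (-0.48, adjusted p = 0.11 from limma).

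Markers of macrophages and dendritic cells, which are rich in cathepsins, were near 0 except for Cd68, a lysosomal membrane protein. Of 6 markers, Itgax was not listed, and Adgre1, Csf1r, Lyz2 and Itgam together had between 2.07 and 7.61 normalized counts per library. Cd68 had 1034 and 642 normalized counts with sdAb-Con (48 h), 497 and 647 with sdAb#07.81 (48 h), and 268 and 235 with sdAb#07.81 (24 h). It rose by a log2 fold change of 1.17 between 24 h and 48 h (SE 0.165, adjusted p = 2.9e-05 from limma). Against sdAb-Con, Cd68 fell by 0.52 on the log2 scale (SE 0.159, adjusted p = 0.0273 from limma), but the libraries of these groups overlapped. Without sdAb-Con library a the value was -0.18, and without sdAb#07.81 (48 h) library a it was -0.32, and neither was called. Nor was it called in the fit over 6 libraries (-0.52, adjusted p = 0.0766 from limma). Without sdAb-Con library b it was -0.86.

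Nupr1, which encodes the target of the antibody, had 3550 and 2977 normalized counts with sdAb-Con (48 h), 2898 and 2898 with sdAb#07.81 (48 h), and 1545 and 2121 with sdAb#07.81 (24 h). Its log2 fold change was -0.16 (SE 0.115) against sdAb-Con (adjusted p = 0.372 from limma) and 0.68 (SE 0.135) against 24 h (adjusted p = 0.000705 from limma).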

How the data were processed

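The authors deposited 2 tables of gene-wise comparisons. Per the submitters' notes, reads were handled with cutadapt 1.9.1, HISAT2 2.0.1 and HTSeq 0.6.1. The notes name GRCh38.p14, a human build, for these mouse cells, so the build of the tables' coordinates is not settled. The deposited signal used here is the mean over 4 libraries of reads divided by size factors. The remaining columns hold the authors' fold changes, standard errors, statistics and p-values and were not used.

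Reads per library were recovered from the means, which are printed to 15 digits. Genes with 1 read in 1 library give each library's step. Steps present in both tables belong to sdAb#07.81 (48 h), and steps of 1 table to its other group, so groups follow from the tables and replicate numbers stay unknown. Whole reads that give both means were found for 28686 of 28712 genes (99.909%), 28598 with 1 solution and 88 chosen as the only one with libraries of a group within 2-fold at counts of at least 100. The 26 left out have means of at least 30012 in the table against sdAb-Con (48 h) and hold 12.06% and 9.61% of summed means. As a check, each deposited step matched a ratio of the recovered reads to their geometric mean, to a relative 8e-16, at most 10 ranks from the median. The median itself differed by up to 0.0302%, with 26 genes missing.

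Since the tables hold normalized values, limma 3.58.1 under R 4.3.3 was run on log2(value + 1) with an intensity trend, at a mean of at least 10 and an adjusted p threshold of 0.05, two-sided. Recovery and fit were also run on simulated libraries in which every gene had the same dispersion. That run does not test the 2-fold rule for genes that vary more. Other steps used Python 3.11.15, numpy 2.4.6 and pandas 2.3.3. Fold changes are on the log2(value + 1) scale. The genes named were all 10 members and lists of further cathepsins, inhibitors, processing genes, neighbours of Ctsw and cell markers. Members and lists were chosen with earlier results of these data known. Depth limits genes with few reads. The p-values rest on the spread between 2 libraries a group, moderated by that of all genes tested, and measure no other spread.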

Additional observations from a re-analysis of the deposited data

How the results depend on the processing

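Both comparisons entered the choice of the cathepsin genes, so the values below describe these libraries and are no support. Against sdAb-Con (48 h), log2 fold changes of Ctsw ranged from -2.88 to -2.74 over the 8 alternative settings, with a lower call in each. Against 24 h its log2 fold change ranged from -0.94 to -0.68, and the call was lost without the filter, in 3 of the 4 fits that left out 1 library and with limma voom, which was added after seeing the data, as was the fit over 6 libraries. The 8 genes gave 128 values under alternatives, of which 111 kept their direction and side of the threshold. When 1 library was left out, log2 fold changes against sdAb-Con ranged from -0.35 to 0.070 for Ctsa, from -0.31 to 0.030 for Ctsd and from -0.028 to 0.074 for Ctsc. They changed sign without sdAb-Con library a (Ctsa and Ctsd), without sdAb-Con library b (Ctsc) or without sdAb#07.81 (48 h) library a (Ctsc, -0.016), and none of these was called. Against 24 h, 6 of the cathepsin genes were called, but 2 without the filter (Ctsd and Ctsl) and 3 to 5 when 1 library was left out, with 3 without sdAb#07.81 (48 h) library b. Against sdAb-Con, 1 was called in every fit that left out a library.

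Without the filter on low values, 32 genes were called against sdAb-Con (48 h) in place of 2115, and 3622 against 24 h in place of 5827. Genes with few reads then enter the shared estimate of spread. When 1 library was left out, 525 to 2501 genes were called against sdAb-Con, with 525 without sdAb#07.81 (48 h) library a, and 4284 to 5794 against 24 h. A group left with 1 library is assumed to vary like the other. With the median transcript length, the share of Ctsl in the summed level was 62.8%, not 30.6%, and the shares use annotated lengths, not those expressed. No symbol was repeated, so summing rows changed nothing.

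No paired analysis was possible because the recovered libraries carry no replicate number. The planned negative binomial count tests and their normalizations were not run, and limma voom was the only model fitted to the recovered reads. Libraries were few, and Ctss and Ctsf had too few reads to test. Without the filter, no gene of the lists that was called against sdAb-Con passed the threshold, and Cstb, Serpinb1a, Serpinb6a, M6pr and Ccdc85b lost their calls against 24 h.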
